A study of Rattus norvegicus with 6 samples.

Results

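The melanocyte pigment genes were followed in RNA sequencing of the rat vestibular epithelium, the balance organ tissue that holds the sensory HCs (hair cells). The set named 10 genes, Tyr, Tyrp1, Dct, Pmel, Mlana, Mitf, Kit, Sox10, Slc45a2 and Oca2, and its members were taken by gene symbol from a table of 32883 genes. A row was found for 9 of the 10, and Dct was not analysed here. The Control group held 3 Long-Evans rats, a pigmented strain, given the vehicle PBS. The STREP group held 3 Long-Evans rats given the ototoxic antibiotic streptomycin at 500 mg/kg, subcutaneously and once a day for 6 weeks from postnatal day 21. Each group had 2 males and 1 female. By the study's description, each library came from 1 animal, whose 2 utricles and 6 cristae were freed of neighbouring tissue at dissection and pooled. How much tissue with melanocytes each sample kept was not recorded in the sources used here, and a smaller number of cells of one type and a lower level of RNA per cell cannot be told apart. All 6 libraries carry the same batch label. The comparison of STREP with Control animals asks which transcripts change under this exposure.

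Melanocytes are neural crest cells that make melanin in membrane-bound organelles, the melanosomes. In the vestibular organs they lie in the connective tissue under the dark cells, the epithelial cells that secrete the potassium-rich endolymph, and not among the HCs. Tyrosinase (Tyr) carries out the first step of melanin synthesis, and Tyrp1 and Dct encode related enzymes that act after it. MITF, a transcription factor that SOX10 helps to switch on, binds short E-box sequences in front of many pigment genes.

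Sequence in front of Tyr, Tyrp1 and Mlana is shown because these measured members hold the E-box and had the lowest log2 fold changes of the 9. Whether the E-box bears on these fold changes was not tested. RefSeq windows from 250 bases before to 50 bases after the start site (assembly GRCr8) were available for 8 of the 10 members, and a script searched them on both strands for the E-box CATGTG, whose reverse complement is CACATG. The E-box was present in the windows of Tyr, Tyrp1, Dct and Mlana, 4 of the 8, and in 14.0% of all 33469 windows. The longer form TCATGTG, which contains the E-box, was in the same 4 and in 3.56% of all windows. In the Tyr window the E-box was found at -120 and at -27 relative to the start site, and in the Tyrp1 window at -67. The Mlana match, at -204, lay on the opposite strand. The window lies at chr1:150622808-150623107 (minus strand) for Tyr, at chr5:100326875-100327174 (plus strand) for Tyrp1 and at chr1:236882825-236883124 (plus strand) for Mlana. Each is printed 5′ to 3′ along the gene, with the E-box matches in capitals.
Tyr: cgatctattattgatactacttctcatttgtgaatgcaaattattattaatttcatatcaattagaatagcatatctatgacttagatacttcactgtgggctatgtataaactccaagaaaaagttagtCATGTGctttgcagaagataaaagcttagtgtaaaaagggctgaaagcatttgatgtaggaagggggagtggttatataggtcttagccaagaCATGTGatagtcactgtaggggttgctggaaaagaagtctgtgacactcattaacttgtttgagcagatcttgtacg
Tyrp1: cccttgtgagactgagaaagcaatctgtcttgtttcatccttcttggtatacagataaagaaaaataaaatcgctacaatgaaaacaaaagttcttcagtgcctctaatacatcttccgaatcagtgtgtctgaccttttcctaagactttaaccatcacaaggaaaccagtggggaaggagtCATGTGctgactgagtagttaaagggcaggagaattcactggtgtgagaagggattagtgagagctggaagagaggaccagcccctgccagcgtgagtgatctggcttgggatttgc
Mlana: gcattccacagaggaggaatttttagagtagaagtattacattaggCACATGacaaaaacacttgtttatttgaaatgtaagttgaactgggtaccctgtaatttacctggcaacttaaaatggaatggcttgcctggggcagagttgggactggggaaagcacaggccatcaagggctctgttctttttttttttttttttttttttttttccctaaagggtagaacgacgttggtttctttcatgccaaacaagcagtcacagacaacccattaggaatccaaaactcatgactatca

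**Figure D1:**
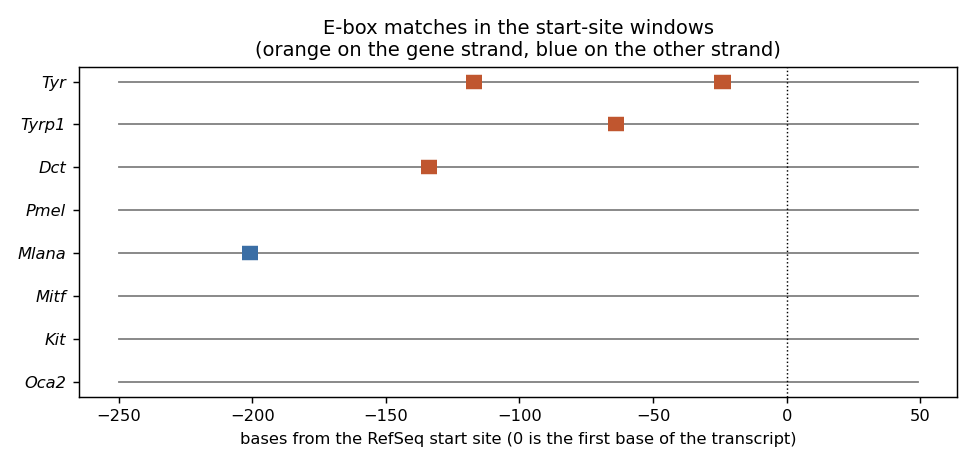
Positions of E-box matches in the RefSeq windows of 8 members, on an axis of bases from the start site. Each grey line is a window and each block a match, orange on the strand of the gene and blue on the other. Tyr has 2 matches, Tyrp1, Dct and Mlana have 1 each, and the windows of Pmel, Mitf, Kit and Oca2 have none.

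Library totals ran from 48568191 to 59906048 counts in Control and from 29333584 to 33744909 in STREP animals, so depth separated the groups. Levels are therefore given as normalised counts, which are counts divided by the DESeq2 size factor of the library. The floor of detection, 3 counts, was between 0.0501 and 0.102 CPM, a count scaled to the library total. All 9 members were above it in every library. The smallest value was 12 counts, for Tyrp1 in STREP replicate 1, with an exact Poisson 95% interval of 6.20 to 21.0 that covers counting error only. Replicate numbers only name animals.

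Of the 9 members, 1 was called and 8 were not. Sox10 rose in STREP animals, to 1.93 times the Control level. The enzyme genes Tyr and Tyrp1 and the melanosome gene Mlana had lower mean values in STREP animals, and none of the 3 passed the test. For Mitf and Kit the log2 fold change was under 0.1 in size. Calls required a DESeq2 p under 0.05 after Benjamini-Hochberg adjustment over every tested gene, together with a change of more than 1.5-fold. By this rule 527 of 16250 tested genes, or 3.24%, were called, with 1.87% called higher and 1.37% lower. The edgeR quasi-likelihood test also called 1 member, Sox10, against 1.77% of the genes it tested. Because all 9 members passed the filter on low counts, no member was left out of the test. At an unadjusted p under 0.05, 3 of the 9 members passed, against 12.2% of all tested genes. Of these, Tyr and Mlana were lower, against a background of 5.56%, and Sox10 was higher, against 6.65%. In normalised counts the groups did not overlap for 2 members, against 17.8% of tested genes. They were Sox10, higher (background 9.12%), and Mlana, lower (background 8.63%). The median log2 fold change of the members was -0.26, and it was 0.0069 over all tested genes.

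**Figure D2:**
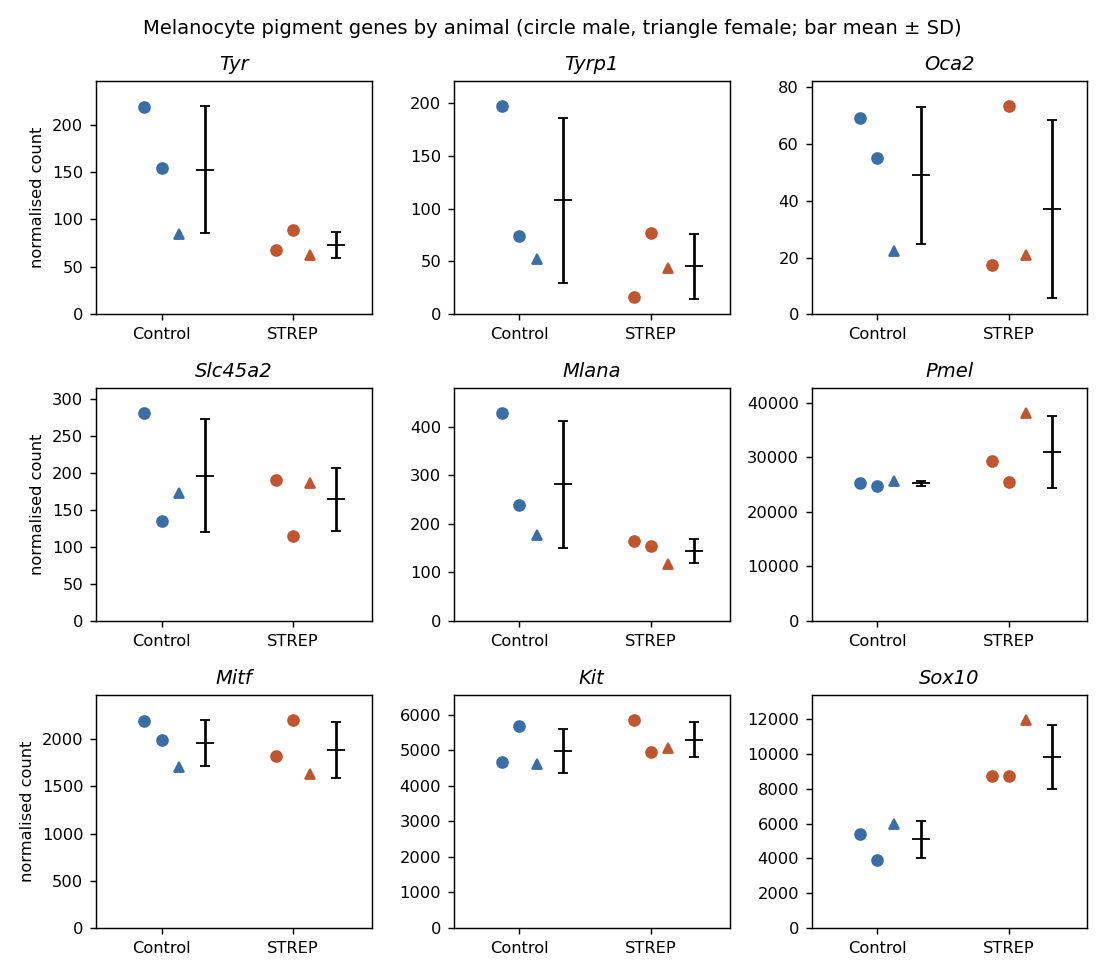
Normalised counts of the 9 members in each animal, with circles for males, triangles for females and a bar for the group mean ± SD (n = 3). The y axes start at 0 and differ between genes. The STREP animals lie above all Control animals for Sox10, and below them for Mlana.

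Among the enzymes, Tyr stood at 219, 154 and 85.1 normalised counts in Control animals, in replicate order, and at 67.9, 88.5 and 62.8 in STREP animals. STREP replicate 2 lay just above Control replicate 3, so the groups overlapped by that pair of animals. The mean was 153 ± 67.0 (SD, n = 3) for Control and 73.1 ± 13.6 for STREP. The log2 fold change was -1.06 ± 0.44 (SE), with a DESeq2 adjusted p of 0.219 and an unadjusted p of 0.0163. Control replicate 1 was the highest animal, and leaving it out gave -0.71 (DESeq2 adjusted p = 0.694). Without Control replicate 3, the lowest of the Control animals, it was -1.35 and Tyr was called lower (DESeq2 adjusted p = 0.0437).

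Tyrp1, which encodes a tyrosinase-related enzyme of eumelanin synthesis, had 197, 74.0 and 52.5 normalised counts in the Control animals. In STREP replicates 1, 2 and 3 it had 16.0, 76.7 and 43.4. Control replicate 1 stood above the 5 other animals, and STREP replicate 2 lay above 2 of the 3 Control animals. STREP differed from Control by -1.25 ± 0.67 on the log2 scale (DESeq2 adjusted p = 0.451), or by -0.48 without Control replicate 1 and -1.87 without STREP replicate 2.

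Mlana encodes a melanosome membrane protein known as Melan-A or MART-1. It had 428, 240 and 177 normalised counts in Control and 164, 154 and 117 in STREP animals. All 3 STREP animals lay below the Control animals, although STREP replicate 1 was close to Control replicate 3. The log2 difference was -0.96 ± 0.37, with a DESeq2 adjusted p of 0.168 and an unadjusted p of 0.0104, so Mlana was not called. Without Control replicate 1 the log2 fold change was -0.53, and with each animal left out it ranged from -1.20 to -0.53.

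Slc45a2 and Oca2 encode transporters of the melanosome membrane that set the conditions for tyrosinase. Slc45a2 had 281, 135 and 173 normalised counts in Control and 190, 116 and 187 in STREP animals. Its log2 fold change was -0.26 ± 0.38 (DESeq2 adjusted p = 0.906) and became 0.086 without Control replicate 1. Oca2 had 69.3, 55.3 and 22.4 normalised counts in Control and 17.3, 73.4 and 20.9 in STREP animals. STREP replicate 2 held the highest Oca2 value of the 6 animals and the other STREP animals the 2 lowest. For Oca2 the log2 difference was -0.39 ± 0.74 (DESeq2 adjusted p = 0.942), with a 95% interval from -1.84 to 1.07. That interval spans more than 2-fold in each direction, and without STREP replicate 2 the log2 fold change was -1.36.

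Pmel, which encodes the protein of the fibrils on which melanin is laid down, had a higher mean in STREP animals. It stood at 25234, 24808 and 25724 normalised counts in Control and at 29299, 25389 and 38126 in STREP animals. On this scale the Control animals lay close together, STREP replicate 2 lay within their range, and STREP replicate 3, the female, was the highest. As CPM, Pmel stood at 686, 601 and 610 in Control and at 750, 739 and 755 in STREP animals. In CPM every STREP animal thus lay above every Control animal, and the STREP animals lay close together. How many of all tested genes separate the groups in CPM was not counted. With library totals as size factors, the matching scale, the log2 difference of Pmel was 0.24 ± 0.16 (DESeq2 adjusted p = 0.914). With the DESeq2 size factors it was 0.29 ± 0.16 (DESeq2 adjusted p = 0.484), and 0.12 without STREP replicate 3. In the GRCr8 annotation Pmel overlaps Cdk2 and Dgka, and since the library protocol does not mark strand, the share of reads that these neighbours might give to Pmel was not tested. Cdk2 had 734 ± 87.6 normalised counts in Control and 731 ± 63.8 in STREP animals, with 1510.1 ± 163 and 1771 ± 227 for Dgka (SD of 3 animals). Tyr, Tyrp1 and Oca2 also overlap uncharacterised loci or pseudogenes in that annotation.

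**Figure D3:**
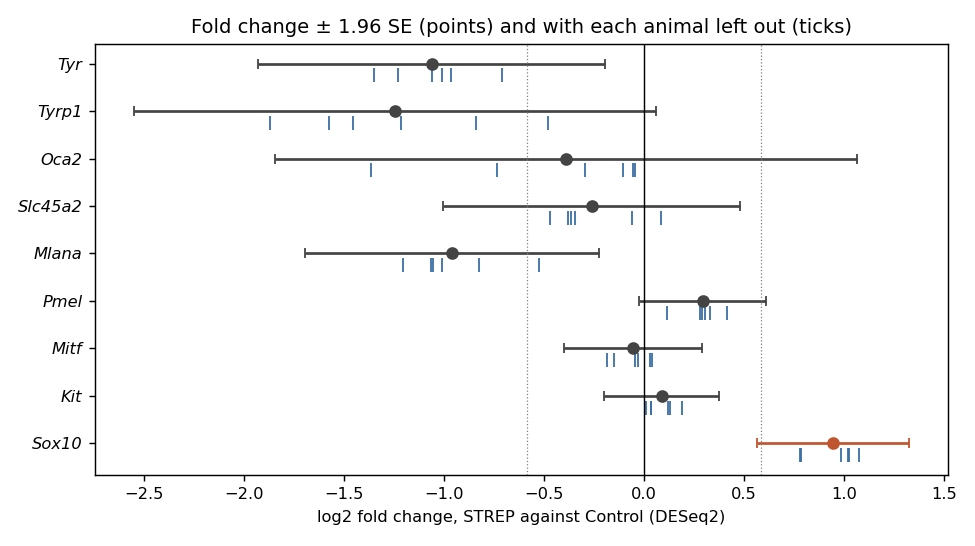
The log2 fold change of each member, STREP against Control, with bars for the 95% interval from DESeq2, and ticks for the fits that each left out 1 animal. Dotted lines mark a fold change of 1.5. Sox10, in orange, is the one member called, and the ticks of Tyrp1 spread from -1.87 to -0.48.

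Of the 3 members that regulate melanocytes, Sox10 was called, and Mitf and Kit were not. Mitf, the transcription factor of the lineage, had 2189, 1988 and 1700.2 normalised counts in Control and 1817, 2207 and 1629 in STREP animals. The groups overlapped, and Mitf differed by -0.056 ± 0.18 on the log2 scale (DESeq2 adjusted p = 0.974), with a 95% interval from -0.40 to 0.29. Kit, the receptor tyrosine kinase for stem cell factor that melanocytes need to survive and migrate, had 4657, 5686 and 4603 normalised counts in Control and 5863, 4952 and 5068 in STREP animals. Its log2 fold change was 0.088 ± 0.15 (DESeq2 adjusted p = 0.926), with a 95% interval from -0.20 to 0.38. Both intervals stayed within a fold change of 1.5.

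Sox10 encodes a transcription factor of neural crest cells that is also made by Schwann cells and by supporting cells of the inner ear. It had 5428, 3927 and 5981 normalised counts in Control and 8773, 8770.2 and 11993 in STREP animals. Every STREP animal lay above every Control animal. The means were 5112 ± 1063 and 9845 ± 1860 (SD, n = 3). This was a log2 difference of 0.95 ± 0.19 (DESeq2 adjusted p = 0.000104), and the edgeR quasi-likelihood test gave 0.94 (adjusted p = 0.0329). Sox10 was called in all 6 fits that left out 1 animal, with log2 fold changes from 0.78 to 1.07, and it was not called when the 1.5-fold threshold was placed inside the Wald test. Within the males, values of 5428 and 3927 stood against 8773 and 8770.2, and the female values were 5981 and 11993. The STREP female, replicate 3, had the smallest size factor of the 6 libraries, 0.668. As CPM, Sox10 stood at 148, 95.1 and 142 in Control and at 225, 255 and 238 in STREP animals. On that scale the STREP female lay between the STREP males.

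The 5 members with few counts, Tyr, Tyrp1, Mlana, Slc45a2 and Oca2, varied among animals within a group as well as between groups. Control replicate 1 held the highest value of the 6 animals for 4 of the 5, and the exception was Oca2. Summed over the 5 genes, the animals had 1195, 658 and 510.0 normalised counts in Control and 455, 509 and 431 in STREP. The lowest Control sum and the highest STREP sum were nearly equal. The ratio of Tyr to Mlana varied less than either gene, with an SD over 6 animals of 0.22 on the log2 scale, against 0.71 for Tyr and 0.65 for Mlana. For Tyr and Tyrp1 the SD of the ratio was 0.72, against 0.71 and 1.19 for the genes, and for Tyrp1 and Slc45a2 it was 1.17. Of the 10 pairs among these genes, the pair of Tyr and Mlana had the smallest SD of the ratio.

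**Figure D4:**
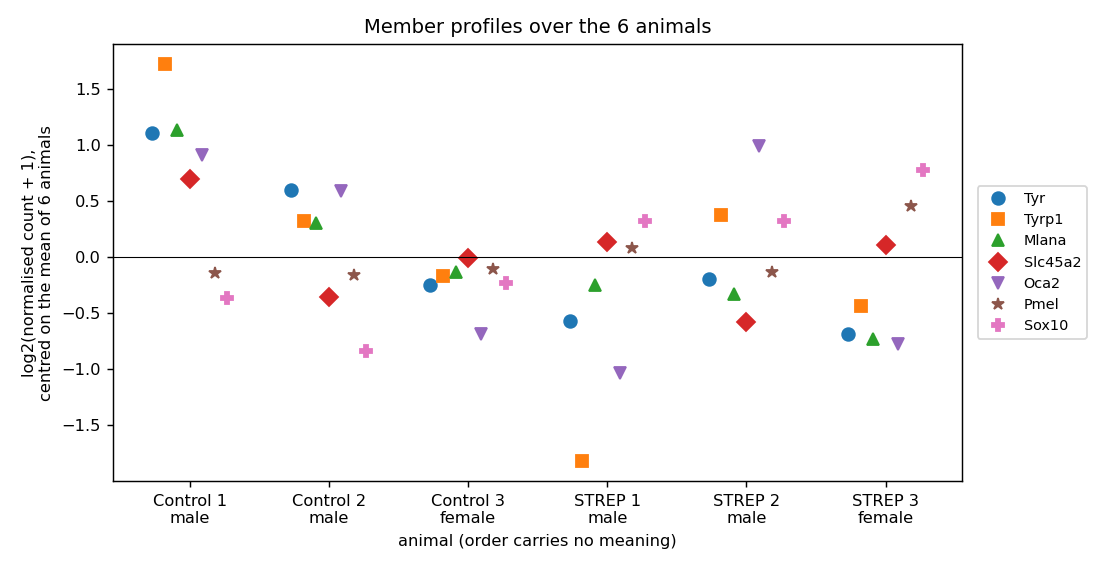
Levels of 7 members in the 6 animals, as log2(normalised count + 1) centred on the mean of each gene over the animals. Symbols stand for genes and are offset sideways, and the order of animals carries no meaning. Control replicate 1 holds the highest value of Tyr, Tyrp1, Mlana and Slc45a2, and the lowest Sox10 values are in the Control animals.

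A mean profile over Tyr, Tyrp1, Pmel, Mlana, Slc45a2 and Oca2 was compared with 13099 other genes that had a mean of at least 50 normalised counts. It lay at 0.91, 0.21 and -0.22 in Control and at -0.58, 0.022 and -0.34 in STREP animals, as centred log2 values. Among the nearest genes, by the root mean square difference over the 6 animals, were AABR07018078.1 (0.11), Zfp17 (0.15), Tmem215 (0.16), Pan3 (0.18) and Mss51 (0.19). None of these 5 was called, and their log2 fold changes ran from -0.67 for Mss51 to -0.52 for Zfp17. AABR07018078.1 and Zfp17 remained among the nearest when Pmel was left out of the profile, a choice made after the data had been seen. Pmel itself lay 0.75 from the profile without it. The genes that make up that profile lay between 0.18 (Tyr) and 0.60 (Slc45a2) from it.

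Other genes of the pathway were read from 3 lists. The melanosome list holds genes that build and move melanosomes and related lysosome-like organelles. Of its 28 genes, 27 were measured and tested, and DESeq2 and edgeR called 0 of them. The median log2 fold change was -0.10, and 16 of the 27 lay below 0, against 49.0% of tested genes. At an unadjusted p under 0.05, 3 passed, all lower, namely Sytl2, Bloc1s2 and Bloc1s1, which are named here after their values were seen. The 3 genes with the most counts were Cd63 (0.0089), the AP-3 adaptor subunit Ap3d1 (0.17) and Hps4 (-0.17), given as log2 fold changes. The sign for Cd63 turned with library totals as size factors, with sex as a covariate, among males alone and in 2 of the fits that left out 1 animal.

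The list of signals and transcription factors that act on melanocytes named 21 genes, of which 17 were tested. DESeq2 and edgeR called 0 of them, and 0 had an unadjusted p under 0.05. The median log2 fold change was 0.028. Sox9, a relative of Sox10 that marks supporting cells, had a mean of 12572 ± 166 normalised counts in Control and of 16215 ± 5850 in STREP animals. The log2 difference was 0.37 ± 0.21 (DESeq2 adjusted p = 0.524). STREP replicate 3 held 22968 normalised counts of Sox9, and without that animal the log2 fold change was 0.031. Ednrb, the endothelin receptor of melanocytes and their precursors, had a log2 fold change of -0.22 ± 0.18, and Usf1 one of 0.028 ± 0.14, whose sign turned with library totals as size factors, among males alone and without STREP replicate 3. Asip, which encodes the agouti signal, had 0 counts in every library.

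The list of other genes expressed in melanocytes held 11 genes, all tested. DESeq2 and edgeR called 0, and 0 had an unadjusted p under 0.05. The median log2 fold change was -0.081, and 9 of the 11 lay below 0, against 49.0% of tested genes. Of the genes with the most counts, S100a1 had a log2 fold change of -0.22 ± 0.65 and Ptgds, which encodes a prostaglandin synthase, one of -0.0055 ± 0.28. Leaving out 1 animal turned the sign of S100a1 and of Ptgds.

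**Figure D5:**
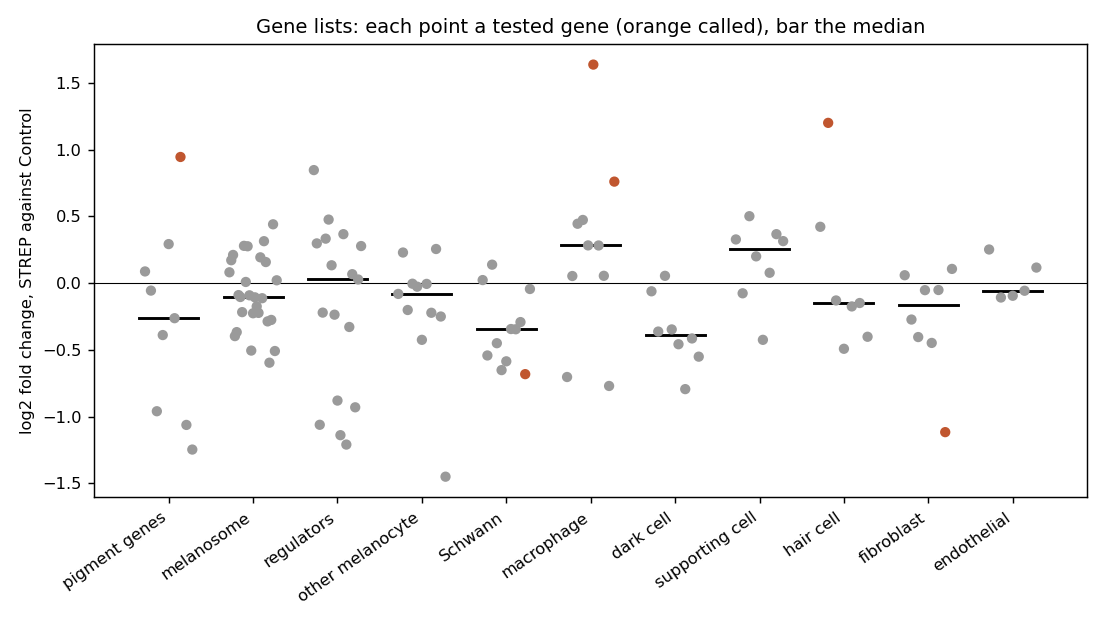
The log2 fold change of every tested gene in 11 lists, with a bar at the median of each list and called genes in orange. Sox10 is the called pigment gene, at 0.95, and 0 genes are called in the melanosome, regulator and other melanocyte lists.

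Markers of cells that lie beside melanocytes or share genes with them were read as well. Of all tested genes, 1.87% were called higher, 1.37% lower, and 49.0% had a log2 fold change below 0. For Schwann cells, which use Sox10 too, 0 of 11 markers were called higher and 9 had a log2 fold change below 0, with a median of -0.35. Their summed level ran from 11128 to 14253 CPM in Control and from 7512 to 11815 CPM in STREP animals. Summed levels of marker lists are scaled to library totals, not by size factors, so they are not on the scale of the fold changes. S100b had a log2 fold change of -0.044 ± 0.29, and Prx was called lower at -0.68 ± 0.21 (DESeq2 adjusted p = 0.0425). The edgeR test did not call Prx (adjusted p = 0.198), and of the 6 fits that left out 1 animal only the fit without STREP replicate 1 called it. For supporting cells, 0 of 8 markers were called and 6 lay above 0, with a median of 0.26. Sox9 is in this list as well as among the regulators. The summed level of the 8 markers ran from 13281 to 14576 CPM in Control and from 16081 to 19437 CPM in STREP animals. Such a sum follows mostly the genes with the most counts, and 1 marker reached 545843 counts in a library. The sum was higher in the animals with higher Sox10, and its part in the Sox10 result was not tested. Otog, a supporting cell gene of the otolithic membranes and cupulae, had 0.50 ± 0.20 (DESeq2 adjusted p = 0.194) and the connexin gene Gjb6 -0.076 ± 0.25.

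For dark cells, which overlie the melanocytes, 0 of 8 markers were called and 7 lay below 0, with a median of -0.39. Their summed level ran from 2289 to 2672 CPM in Control and from 1600 to 2581 CPM in STREP animals. Slc12a2, the cotransporter that loads dark cells with potassium, differed by -0.55 ± 0.14 on the log2 scale (DESeq2 adjusted p = 0.00350), which did not reach 1.5-fold, and its adjusted p in edgeR was 0.155. It was called without Control replicate 1, STREP replicate 1 or STREP replicate 2. The part of dark cell tissue in the Tyr and Mlana values was not tested. Mast cells, which also carry Kit, gave at most 14 counts of any of 9 markers in a library, and Cpa3, Ms4a2, Tpsb2, Mcpt1 and Mcpt1l1 had 0 counts in all 6. Markers of macrophages, which also use Mitf, were called higher for 2 of 10, Mrc1 and Cd163 (background 1.87%). Of the 10, 2 lay below 0 (median 0.28). Of fibroblast markers 1 of 8, Otor, was called lower (background 1.37%), and 6 lay below 0 (median -0.16). Of endothelial markers 0 of 5 were called, and 3 lay below 0 (median -0.057). Of HC markers 1 of 7, Gfi1, was called higher (background 1.87%), while 5 of the 7 lay below 0 (median -0.15). The edgeR test called 0 of the macrophage, fibroblast and endothelial markers and 1 of the HC markers. At an unadjusted DESeq2 p under 0.05, 12.2% of all tested genes passed, 5.56% lower and 6.65% higher. The markers that passed were 4 of 11 for Schwann cells (4 lower) and 2 of 8 for supporting cells (0 lower). For dark cells 3 of 8 passed (3 lower), and for macrophages 5 of 10 (1 lower). The others were 2 of 8 for fibroblasts (2 lower), 0 of 5 for endothelium and 4 of 7 for HCs (2 lower).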

How the data were processed

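Total RNA of the vestibular epithelium of 6 rats was sequenced from SMART-seq2 libraries. The authors aligned the reads with STAR 2.5.3a (version as in the submitters' processing notes) to the rat genome and deposited expected counts per gene from RSEM 1.3.0, unscaled between libraries. All values were whole numbers, so rounding changed nothing. RSEM divides reads among similar genes. Groups came from the treatment labels.

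All genes entered a DESeq2 1.42.0 fit in R 4.3.3, with treatment as its one term and a Wald test on it. Size factors were the tool's default, and independent filtering was set for an adjusted p of 0.05. Alternatives were quasi-likelihood tests in edgeR 4.0.16, TMM factors or library totals for scaling, genes kept at 10 counts or more in 3 libraries, filtering switched off, a term for sex, the males by themselves, other call thresholds and each animal left out. The procedure was tested on simulated counts. Intervals of fold changes cover 95%.

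The members and lists were chosen with earlier results of these data known. Named genes were the members, in each pathway list the called genes and the 3 with the most counts, the 6 genes nearest to the pigment profile, and, of each marker list, the 2 with the most counts and those with 0 counts throughout. By this rule Csf1r and C1qb (macrophages), Atp1b2 (dark cells), Coch and Pdgfra (fibroblasts), Kdr and Flt1 (endothelium), Otof and Myo6 (HCs) and Hdc and Cma1 (mast cells) are counted within their lists. Sytl2, Bloc1s1, Bloc1s2, Prx, Slc12a2, Mrc1, Cd163, Otor and Gfi1 were named after their values were seen. Some genes that the rule names are not reported here. Where 2 rows share a symbol, the row with more counts was used. Promoter windows are RefSeq sequence of GRCr8, not the Rnor6.0 build of the counts, and overlaps between genes were read in GRCr8. Tests over 3 animals a group measure the spread between these animals.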

Additional observations from a re-analysis of the deposited data

How the results depend on the processing

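Of the 9 members, the count called was 1 under the edgeR tests, other size factors, the count filter, filtering switched off, a term for sex, the males by themselves and the adjusted p alone, and 0 with the fold threshold inside the Wald test. It was 1 to 2 with each animal left out, the second call being Tyr without Control replicate 3. The 3 pathway lists gave 0 calls under every alternative run. Over all genes, 264 were called with edgeR and a count filter, 295 with edgeR and no filter, 309 with library totals as size factors and 82 with the fold threshold inside the Wald test. Of 63 values of members under other settings, all kept direction and call. These values leave out the fits with filtering switched off and with the fold threshold inside the Wald test. Of 54 with 1 animal left out, 50 did, 1 became a call and 3 changed sign, and the ranges were -0.19 to 0.040 for Mitf and -0.47 to 0.086 for Slc45a2. Cd63 changed sign with library totals (-0.059), sex as a covariate (-0.045) and males alone (-0.30), and Usf1 with library totals (-0.0036) and males alone (-0.069). With each animal left out, log2 fold changes ran from -0.31 to 0.18 for Cd63, -0.041 to 0.098 for Usf1, -0.45 to 0.23 for Ptgds, -0.91 to 0.16 for S100a1, -0.53 to 0.23 for S100b and -0.46 to 0.16 for Gjb6. The cause was not tested. No paired analysis was possible because the labels number no replicates, and the numbers used here follow the order of the samples and pair no animals. The sample titles of STREP replicates 1 and 2 share a stem. The labels do not say whether that stem marks an animal, a cage or a litter. Depth limits Tyr, Tyrp1 and Oca2 most, with as few as 42, 12 and 13 counts in a library.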

Other observations

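The change under streptomycin was compared between the sexes by an interaction term in DESeq2, for which each group held 1 female. The log2 fold change of the females minus that of the males was 1.27 for Tyrp1, 0.81 for Tyr, 0.56 for Slc45a2, 0.47 for Mlana, 0.44 for Pmel, 0.36 for Oca2, 0.097 for Sox10, 0.075 for Kit and -0.0080 for Mitf. The DESeq2 adjusted p was 0.999 for 8 of the 9, and DESeq2 gave none for Oca2.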
